A study of Mus musculus with 12 samples.

Results

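Open chromatin at 7 mouse genes of microRNA biogenesis and let-7 control was read from ATAC-seq peak lists, in which Tn5 transposase marks accessible DNA. The genes were Lin28a, Lin28b, Trim71, Drosha, Dgcr8, Dicer1 and Ago2, out of 21887 protein-coding genes of the GRCm38.p6 RefSeq table. For each gene every peak overlapping the annotated span or the 10 kb on either side was taken from all 12 lists, and overlapping peaks were merged over libraries into consensus regions. This gave 69 of the 97889 regions of the mouse chromosomes.

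The cells were mouse embryonic stem cells of a BL6xCAST background, grown mostly in 2i medium with LIF. In 6 libraries the cells carried synHPRT1R on chromosome X, and in 6 libraries they carried synHPRT1 there, so that every library had a synthetic construct and none came from cells without one. Each genotype was represented by 2 clones with 3 replicates per clone, and the design set the constructs beside the rest of the genome. The labels do not say that replicates were separate cultures, so p-values measure the spread between libraries, which may be technical. The lists held 41737 to 58099 peaks in synHPRT1R and 38403 to 63704 peaks in synHPRT1. The background pileup, a measure of depth recovered from the lists, was 1.98 to 2.88 reads in synHPRT1R and 1.74 to 3.72 reads in synHPRT1. The shallowest library was synHPRT1 clone 2 replicate 3. A site could be listed only where its summit reached 8 to 11 reads, so an unlisted site was not detected at this depth, not shown to be closed. The embryonic stem cell label was checked against markers: all 10 stem cell marker genes had a region listed in all 12 libraries within 10 kb, against 2 of 10 genes of other cell types and 6 of 8 fibroblast and feeder genes. Over all protein-coding genes this share was 65.1%. Of those with an annotated start site, the start site itself lay in such a region for 8 of 9 stem cell markers, for 0 of 5 genes of other cell types and for 1 of 5 fibroblast and feeder genes, against 48.8% of 17492 protein-coding genes. The stem cell marker without one was Pou5f1, named after its values were seen. Its start site was listed in 0 libraries, and it had 2 regions in all 12 libraries within 10 kb.

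MicroRNAs are made in steps: the nuclease Drosha with its RNA-binding partner Dgcr8 cuts the hairpin out of the primary transcript in the nucleus, Dicer1 cuts the hairpin to a short duplex in the cytoplasm, and an Argonaute protein such as Ago2 carries the mature strand to its targets. The RNA-binding proteins Lin28a and Lin28b bind let-7 precursors and keep them from being matured, and Trim71, a ubiquitin ligase and RNA-binding protein of the stem cell state, is itself a classical let-7 target. Embryonic stem cells are known for high levels of the miR-290 family and low levels of mature let-7.

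By median over the libraries, the start sites of Drosha, Dgcr8 and Dicer1 ranked in the upper part of the lists, that of Lin28b in the middle and those of Trim71 and Lin28a lower. The strength of a peak is given here as its in-list rank, the percentage of peaks of the same list with a lower fold over local background, where the fold is the authors' value at the summit. The median rank over the 12 libraries was 97.1% at the Drosha start site, 91.3% at Dgcr8 and 90.1% at Dicer1. It was 60.4% at the start site of Lin28b, 31.6% at that of Trim71 and 12.8% at that of Lin28a. The Lin28b start site used lies inside the annotated gene span. The region at the upper end of that span had a median of 85.3%. For Ago2 no start site was used here. Over all regions that hold an annotated start site and were listed in all 12 libraries, the median was 80.7%. Single libraries crossed this order: Dicer1 ranked 78.4% in its lowest library, and Lin28b reached 83.2% in its highest.

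**Figure D1:**
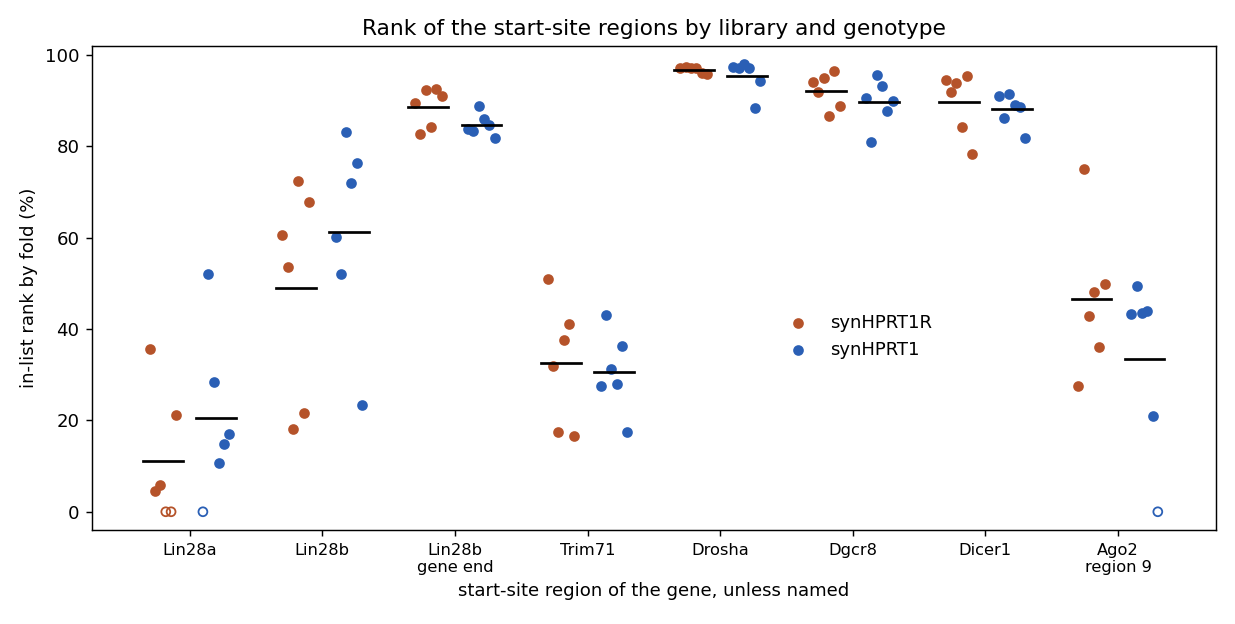
In-list rank by fold (%) of the start-site region of each gene, with the region at the upper end of Lin28b and region 9 of Ago2 added, for synHPRT1R (left of each pair) and synHPRT1 libraries; points are libraries, open points at 0 are libraries that did not list the region, and bars are means over 6 libraries. Drosha, Dgcr8 and Dicer1 sit between 78.4% and 97.9% in all 12 libraries, and the genotypes overlap at every gene.

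Drosha, the nuclease that starts microRNA maturation in the nucleus, had the strongest start-site region of the 6 members with a start site in the table. It spanned chr15:12824209-12825284 (GRCm38), 1076 bp, and also held the start site of the neighbouring gene 6030458C11Rik, so the lists cannot assign it to a single promoter. The median summit lay at -83 bp relative to the Drosha start site, and the summits of the 12 libraries fell within 136 bp of each other. Its rank was lowest at 95.8%, median 97.1% and highest at 97.3% in synHPRT1R, against 88.3%, 97.1% and 97.9% in synHPRT1. All synHPRT1R libraries lay in a narrow band inside the synHPRT1 range, and synHPRT1 clone 2 replicate 2 was the lowest of the 12. The summit pileup was 33 to 67 reads over the 12 libraries, with a median fold of 10.4. Of the protein-coding genes with a region, 94.6% had a lower median strongest rank.

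The 300 bases of RefSeq sequence around the Drosha start site (250 before to 50 after; GRCm38.p6, chr15:12824565-12824864, plus strand) are shown because they carry the strongest of these peaks; capitals mark CpG dinucleotides.
Drosha: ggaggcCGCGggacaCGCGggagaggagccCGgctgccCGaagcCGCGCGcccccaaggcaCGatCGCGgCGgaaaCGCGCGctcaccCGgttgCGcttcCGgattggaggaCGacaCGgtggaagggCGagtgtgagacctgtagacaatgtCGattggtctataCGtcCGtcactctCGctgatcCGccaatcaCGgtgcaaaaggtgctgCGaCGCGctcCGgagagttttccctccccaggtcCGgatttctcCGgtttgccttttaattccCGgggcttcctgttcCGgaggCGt
This window holds 37 CpGs, more than 92.7% of the 21263 start-site windows in the table, whose median was 13. It holds the CCAAT box (CCAAT or ATTGG) at 3 places and the ETS core (CCGGAAG or CTTCCGG) at 1, motifs found in 38.2% and 11.6% of all windows. It has no match to the GC box (GGGCGG or CCGCCC), which 46.2% of windows hold.

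Inside the Drosha gene lay 14 further regions, and 1 lay beyond its far end. Of the 16 regions in all, 3 were listed in all 12 libraries, 1 in 11, 7 in 2 to 9 and 5 in a single library. The pair listed everywhere besides the start site lay 33393 bp and 91761 bp into the gene, with median ranks of 49.8% and 55.2%. Region 11, 73219 bp into the gene, was listed in 11 libraries with a median rank of 66.9% where listed. Whether a region is exonic or intronic was not determined here.

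Dgcr8, the double-stranded RNA-binding partner of Drosha, had 3 regions, of which 2 were listed in all 12 libraries. The start-site region, chr16:18288780-18289846, was 1067 bp wide with its median summit at -203 bp. Its rank was 86.7% at the lowest, 93.0% at the median and 96.6% at the highest in synHPRT1R, against 80.9%, 90.2% and 95.6% in synHPRT1. The groups overlapped over most of their range, with synHPRT1 clone 1 replicate 2 the lowest library. The second region, chr16:18248130-18249421, held the start sites of Ranbp1 and Trmt2a and no Dgcr8 start site, with a median rank of 86.0%. The Dgcr8 window had 43 CpGs, more than 96.7% of windows, with the GC box at 2 places and the CCAAT box at 4.

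Dicer1, the nuclease that releases the microRNA duplex, had 1 of its 5 regions listed in all 12 libraries, the start-site region at chr12:104751258-104752734. Its median summit lay at -220 bp and its median fold was 8.70. The rank was lowest at 78.4%, median 92.8% and highest at 95.3% in synHPRT1R, against 81.8%, 88.9% and 91.6% in synHPRT1. In synHPRT1R, 2 clone 2 libraries were low and the other 4 libraries were above every synHPRT1 library, so that the ranges overlapped through clone 2. Clone means were 93.4% and 86.0% in synHPRT1R clones 1 and 2, against 89.7% and 86.5% in synHPRT1 clones 1 and 2. The Dicer1 window held 49 CpGs, the highest count of the members and more than in 98.7% of windows. The other Dicer1 regions lay outside the gene, and those on either side that 10 libraries listed had median ranks where listed of 28.5% (region 1, beyond the far end) and 50.3% (region 5, upstream).

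Ago2, the Argonaute protein that can itself cut a target, was the only member with no region in all 12 libraries. It had 13 regions, of which 3 were listed in 11 libraries, 6 in 2 to 9 and 4 in 1. Its places are given from the upper end of the gene, at position 73184947 of chromosome 15. Region 9, chr15:73183050-73183724, lay just inside that end and region 11, chr15:73185186-73185775, just outside it. Both were listed in every library but the shallowest one, synHPRT1 clone 2 replicate 3. That library did list the neighbouring region 8, chr15:73182491-73182712, at a rank of 43.0%. The part of depth in its not listing regions 9 and 11 was not tested. Region 9 ranked lowest at 27.4%, median 45.5% and highest at 75.1% in synHPRT1R, against not listed in 1 library and 21.1% to 49.4% in the other 5 in synHPRT1. A single library, synHPRT1R clone 1 replicate 2, stood above all the others, and the rest overlapped. Region 6, chr15:73139764-73141044, lay within the gene and was unlisted in synHPRT1R clone 1 replicate 3 alone.

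Lin28a, the LIN28 protein most associated with the pluripotent state, had the weakest start-site region of the members with an annotated start. The region at chr4:134017301-134018989 was listed in 9 of 12 libraries. In synHPRT1R it ranked 35.6%, 4.53% and 5.79% in clone 1, was unlisted in clone 2 replicates 1 and 2, and ranked 21.3% in clone 2 replicate 3. In synHPRT1 it was unlisted in clone 1 replicate 1, ranked 52.1% and 28.4% in the other clone 1 libraries, and ranked 10.7%, 14.9% and 17.0% in clone 2. The libraries that missed it came from both genotypes and the listed ranks overlapped. Its summit pileup was 9 to 18 reads where listed, with a median of 13 reads. The lowest summit pileup in a list was 8 to 11 reads, and the median of a list was 16 to 23 reads. The summits of this Lin28a region were spread over 1231 bp. The strongest region in the Lin28a window, chr4:134000668-134001404 with a median rank of 83.9%, lay outside the gene and held the start site of Dhdds, an enzyme of dolichol synthesis. With the gene span alone, the median strongest rank of Lin28a was 16.0%.

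Lin28b, the second LIN28 protein, had 8 regions and 3 listed in all 12 libraries. The region at its annotated start site, chr10:45468995-45470503, ranked lowest at 18.2%, median 57.1% and highest at 72.5% in synHPRT1R, against 23.4%, 66.1% and 83.2% in synHPRT1. Both genotypes spread widely, and in each the lowest library was one with a summit of 11 reads. A stronger region lay at the upper end of the gene, chr10:45485405-45487110, upstream of the start site used by the table since Lin28b is on the minus strand. On that strand the upper end is where the annotated span begins, so the start site used lies inside the gene. The median summit of the stronger region was at -16194 bp. That region ranked 82.6% at the lowest, 90.3% at the median and 92.5% at the highest in synHPRT1R, against 81.9%, 84.3% and 88.8% in synHPRT1. In synHPRT1R 4 libraries lay above all synHPRT1 libraries and the other 2 lay within their range.

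The windows of Lin28a (GRCm38.p6, chr4:134018767-134019066, minus strand) and Lin28b (chr10:45470152-45470451, minus strand) are shown as the member windows with the fewest CpGs. Capitals again mark CpG.
Lin28a: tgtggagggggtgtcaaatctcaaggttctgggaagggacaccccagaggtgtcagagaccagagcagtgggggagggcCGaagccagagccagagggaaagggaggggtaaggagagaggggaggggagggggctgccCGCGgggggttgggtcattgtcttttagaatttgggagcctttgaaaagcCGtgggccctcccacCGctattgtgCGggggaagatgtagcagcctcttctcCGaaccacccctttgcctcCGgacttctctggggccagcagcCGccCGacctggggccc
Lin28b: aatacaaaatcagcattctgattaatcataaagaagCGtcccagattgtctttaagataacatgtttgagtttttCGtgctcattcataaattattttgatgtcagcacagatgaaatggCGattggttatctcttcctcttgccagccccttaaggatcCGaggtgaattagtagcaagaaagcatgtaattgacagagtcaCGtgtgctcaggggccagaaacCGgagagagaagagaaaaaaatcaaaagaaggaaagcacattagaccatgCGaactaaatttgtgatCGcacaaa
Lin28a held 10 CpGs, more than 43.2% of windows, and Lin28b 8, more than 38.5%, both below the median of 13. The Lin28b window is that of the start site inside the gene, and the upper gene end was not examined for CpGs or motifs. Lin28a had 1 match to the GC box and no CCAAT box. Lin28b had 1 CCAAT box and 1 E-box (CACGTG), a motif found in 7.84% of windows. The octamer (ATGCAAAT or ATTTGCAT), found in 1.66% of windows, and the TATA box (TATAAA or TTTATA), found in 12.6%, were in none of the 6 member windows.

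Trim71, the ubiquitin ligase targeted by let-7, had the most regions of the 7 genes, 19 in 73.1 kb or 2.60 per 10 kb, and 98.4% of protein-coding genes with a region had fewer per 10 kb. Of these regions, 3 were listed in all 12 libraries, 1 in 10, 9 in 2 to 9 and 6 in 1. The start-site region, chr9:114562395-114565233, was 2839 bp wide, the widest of the 69, and its summits were spread over 1673 bp. It ranked lowest at 16.5%, median 34.7% and highest at 51.0% in synHPRT1R, against 17.4%, 29.7% and 43.0% in synHPRT1. The range of synHPRT1 lay within that of synHPRT1R. The others in all 12 libraries lay 7246 bp and 36161 bp into the gene, with median ranks of 42.3% and 47.7%. Region 11, the farther of these, was only 305 bp wide, and its summits fell within 141 bp of each other. The start-site window of Trim71, shown because its region was the widest and yet low in fold, holds 19 CpGs (GRCm38.p6, chr9:114564320-114564619, minus strand; capitals mark CpG).
Trim71: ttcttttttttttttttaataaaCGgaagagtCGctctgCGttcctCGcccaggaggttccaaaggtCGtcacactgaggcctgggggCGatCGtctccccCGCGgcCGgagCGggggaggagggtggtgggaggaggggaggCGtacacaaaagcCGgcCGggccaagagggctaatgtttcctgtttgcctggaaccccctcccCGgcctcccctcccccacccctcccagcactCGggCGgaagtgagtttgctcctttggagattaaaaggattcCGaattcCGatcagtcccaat
It has 1 GC box and 1 CCAAT box.

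**Figure D2:**
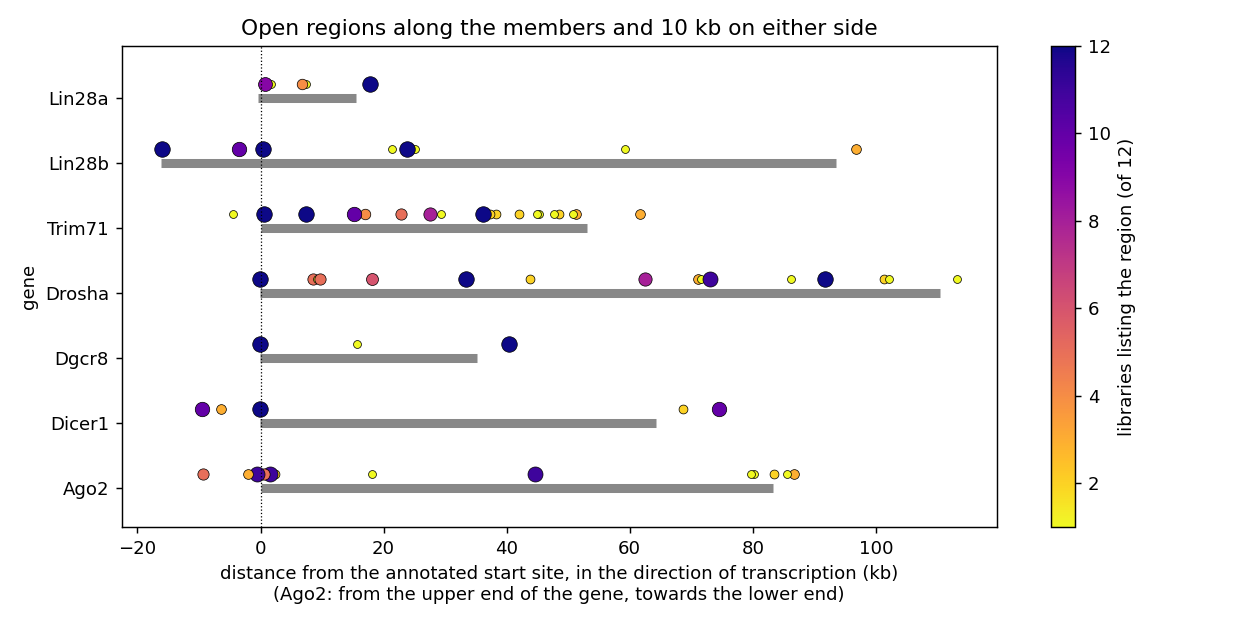
Consensus regions along each gene, plotted by distance from the annotated start site in the direction of transcription (kb; for Ago2 from the upper gene end), with the gene as a grey bar; colour and size give the number of libraries listing the region, from 1 to 12. Regions in all 12 libraries stand at the start sites of 5 of the 6 genes that have one in the table, and Trim71 and Drosha hold 19 and 16 regions.

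Across the 6 start-site windows, CpG content and rank did not run in 1 order. Over the whole table, the share of start sites in a region listed in all 12 libraries was 3.26% at 0 to 4 CpGs, 57.6% at 10 to 14 and 82.3% at 30 to 34. Dicer1, Dgcr8 and Drosha lay above the upper quartile of rank of the start sites of like CpG count that were listed in all 12 libraries; for Dicer1, the upper quartile was 82.3%. Trim71, at 31.6%, lay below the lower quartile of its own, 68.3%. Lin28b, at 60.4%, was only just under its lower quartile of 60.5%. Lin28a, listed in 9 libraries, was not among the start sites listed in all 12. The number of windows is 6, so this is a description only.

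**Figure D3:**
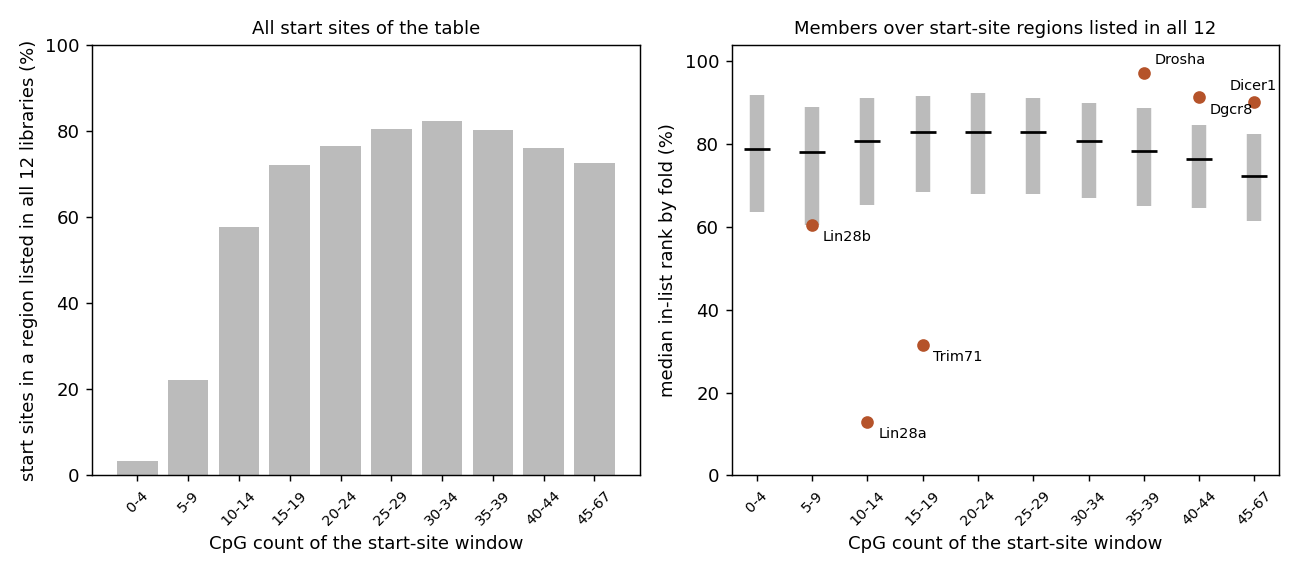
Left, share of all annotated start sites (%) in a region listed in all 12 libraries by the CpG count of the 300 bp window; right, median in-list rank (%) of those regions (black bars, medians; grey bars, quartiles) with the 6 members as points. Drosha, Dgcr8 and Dicer1 lie above the grey bars of their bins, and Trim71 lies below its own; Lin28a, listed in 9 libraries and counted as 0 in the others, is drawn at 12.8% and is not one of the regions behind its grey bar.

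How many libraries listed a region varied widely within the genes. Of the 69 regions 13 were in all 12 libraries, or 18.8%, against 26.0% of the 66458 regions near protein-coding genes. A further 8 were in 10 or 11 libraries, 27 in 2 to 9 and 21 in 1. Width followed this order: the median width was 1076 bp for member regions in 12 libraries and 230 bp for those in 1, close to 1083 bp and 240 bp over all regions of these classes. A merged region can only widen as more libraries list it, and the part of the merge in these widths was not tested.

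**Figure D4:**
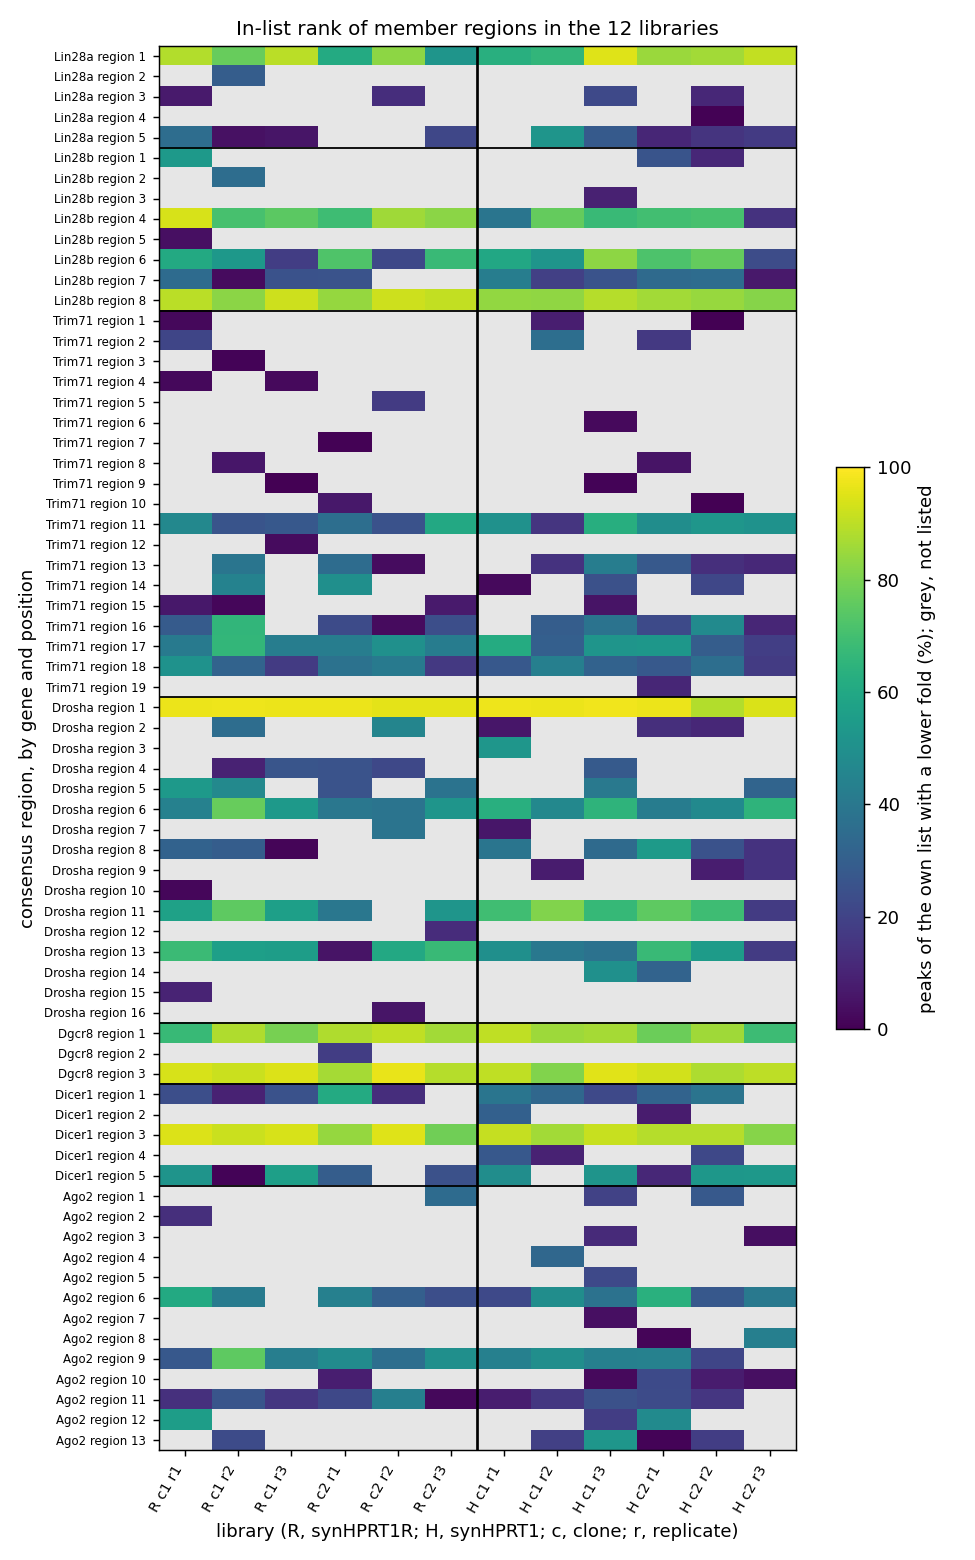
In-list rank by fold (%) of the 69 regions (rows, by gene and position) in the 6 synHPRT1R libraries (left of the line) and the 6 synHPRT1 libraries; grey, not listed. The rows at the start sites of Drosha, Dgcr8 and Dicer1 are bright in all 12 libraries, and most other rows are grey in part.

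The order of the genes depended on the measure. The deposited fold divides the summit pileup by the local background, so a peak within a broad stretch of raised signal ranks lower by fold than by reads. The median local background was 5.73 reads at Ago2 region 9, 4.95 at the Trim71 start site and 4.43 at Dicer1 region 5, against 2.69 at Lin28a region 1. Ranked by the recovered summit pileup, Ago2 region 9 had a median of 79.1% where listed, against 43.4% by fold. The Trim71 start site moved to 67.5% by pileup, against 31.6% by fold. The Drosha start site moved little, at 94.9% by pileup and 97.1% by fold, as did Dgcr8 (88.2% and 91.3%) and Dicer1 (86.6% and 90.1%). The region at the upper end of Lin28b reached 90.8% by pileup, so that by reads it outranked both of these. Pileup ranks were added after the data were seen.

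**Figure D5:**
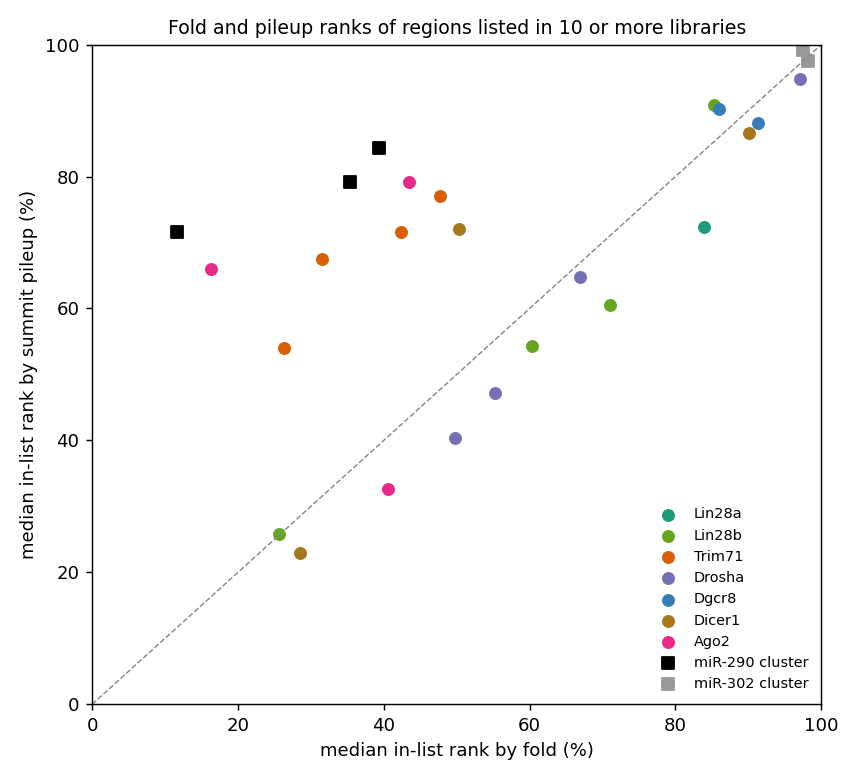
Median in-list rank by fold (%, horizontal) and by recovered summit pileup (%, vertical) of the member regions and miR-290 and miR-302 cluster regions listed in 10 or more libraries; the dashed line marks equal ranks. The Trim71 regions, Ago2 regions 9 and 11 and the 3 miR-290 regions lie well above the line, and the Drosha, Dgcr8 and Lin28b regions lie nearer to it.

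Between synHPRT1R and synHPRT1, no difference at a member gene was larger than the spread between libraries after adjustment. For Lin28b, Dgcr8, Ago2 and Trim71 the strongest peak was not the same region in every library. Their means thus do not compare a single site. For Ago2 some of these regions lay outside the gene, and for Dgcr8 some libraries gave the region of Ranbp1 and Trmt2a. The strongest peak of each gene averaged as follows, with all values as in-list rank ± SD and n = 6 per genotype. Lin28b averaged 89.4 ± 4.71% in synHPRT1R and 84.8 ± 2.39% in synHPRT1, the smallest p of the 7 (exact permutation p = 0.0584, adjusted p = 1). Ago2 averaged 53.3 ± 12.5% in synHPRT1R and 46.6 ± 11.8% in synHPRT1, and the difference of 6.70 percentage points was 2.34 without synHPRT1R clone 1 replicate 2 and 2.97 without synHPRT1 clone 2 replicate 2. Lin28a averaged 75.2 ± 15.4% in synHPRT1R and 81.0 ± 13.4% in synHPRT1, values that belong to the Dhdds region. The means were 96.8 ± 0.650% in synHPRT1R and 95.4 ± 3.68% in synHPRT1 for Drosha. They were 92.4 ± 3.41% in synHPRT1R and 90.4 ± 3.66% in synHPRT1 for Dgcr8. For Dicer1 they were 89.7 ± 6.86% in synHPRT1R and 88.1 ± 3.61% in synHPRT1, and for Trim71 53.3 ± 8.49% in synHPRT1R and 53.9 ± 7.28% in synHPRT1. By the exact permutation test over all splits of 6 against 6 with Benjamini-Hochberg adjustment, 0 of the 7 genes passed, beside 0.0% of 18602 genes. At an unadjusted p under 0.05, 0 of the 7 passed, beside 4.7% of all genes. With this design 806 genes would have had to reach the smallest possible p of 0.00216 for any to pass the adjustment. Over clones, an exact test of 2 against 2 cannot go below 0.333.

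The number of regions listed per gene gave the same count of calls. Ago2 had 5, 4, 2, 4, 3 and 4 regions in the synHPRT1R libraries, against 3, 5, 10, 7, 6 and 4 in the synHPRT1 libraries. The 3 highest counts were all in synHPRT1, 1 of them in clone 1 and 2 in clone 2, and the groups otherwise overlapped. The means were 3.67 ± 1.03 in synHPRT1R and 5.83 ± 2.48 in synHPRT1 (SD over 6 libraries per genotype; p = 0.0974 by exact permutation and 1 after adjustment). The difference of -2.17 regions was -1.33 without synHPRT1 clone 1 replicate 3, the library with 10. That library had a background pileup of 3.16 reads, against a median of 2.69 over the 12 libraries, and the part of depth in the counts was not tested. None of the 7 genes passed at an adjusted p under 0.05, beside 0.0% of 16458 genes, or at an unadjusted one, beside 1.16%.

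Single regions were compared too. For presence, 56 member regions that some but not all libraries listed were tested with Fisher's exact test. After adjustment 0 passed, beside 0.0% of 74604 regions, and unadjusted 0 passed, beside 0.22%. Most of the 56 were listed in too few or too many libraries to reach an unadjusted p under 0.05 at any split. For any region to pass the adjustment, 3230 would have had to reach the smallest possible p of 0.00216 by Fisher's exact test. These counts therefore do not show that presence was alike in the genotypes. Of the 13 member regions listed in all 12 libraries, 0 passed the exact permutation test of rank after adjustment, beside 0.0% of 23285, and 1 passed unadjusted, beside 5.68%. That was region 4 of Lin28b, chr10:45446057-45446832, 23805 bp into the gene. It ranked lowest at 69.1%, median 78.6% and highest at 93.8% in synHPRT1R, against 14.5%, 68.8% and 76.3% in synHPRT1. The groups overlapped, and the lowest values, 38.8% in clone 1 replicate 1 and 14.5% in clone 2 replicate 3, were both in synHPRT1. The means differed by 23.1 percentage points (exact permutation p = 0.0368, adjusted p = 0.849). The lowest value came from the shallowest library.

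At the microRNA genes that these proteins act on, the clusters known from embryonic stem cells carried regions in all 12 libraries, and so did 6 of the 12 let-7 family genes. The mature sequences below, from RefSeq (GRCm38.p6), are shown for the seeds that several of them share: capitals mark the seed, bases 2 to 8.
miR-302b-3p: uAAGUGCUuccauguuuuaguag
miR-302d-3p: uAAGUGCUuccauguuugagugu
miR-291a-3p: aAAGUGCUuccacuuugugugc
miR-294-3p: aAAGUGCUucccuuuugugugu
miR-295-3p: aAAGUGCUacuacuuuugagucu
let-7a-5p: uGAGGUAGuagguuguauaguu
let-7e-5p: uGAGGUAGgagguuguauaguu
let-7g-5p: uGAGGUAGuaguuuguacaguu
let-7i-5p: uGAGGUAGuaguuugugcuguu
miR-98-5p: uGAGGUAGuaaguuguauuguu
The first 5 share the seed AAGUGCU, although they come from the miR-290 cluster on chromosome 7 and the miR-302 cluster on chromosome 3. Not every member of these clusters has that seed. Other seeds were found in miR-290a-3p, miR-290b-3p, miR-291b-3p, miR-292b-3p, miR-293-3p and miR-302c-3p, which are not shown. The seed GAGGUAG was shared by 9 let-7 family members of the table, miR-98 among them.

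The miR-290 cluster, chr7:3218626-3220841, had 4 regions, 3 of them in all 12 libraries. Region 3, chr7:3220648-3222561, overlapped the Mir294 and Mir295 hairpins and ran beyond the cluster. It ranked lowest at 16.4%, median 29.4% and highest at 56.7% in synHPRT1R, against 29.2%, 45.1% and 56.2% in synHPRT1, with overlapping groups (exact permutation p = 0.145, adjusted p = 0.925). The other pair lay before the first hairpin, with medians of 35.4% and 11.7%. By summit pileup the median ranks of the 3 regions were 79.2%, 71.7% and 84.3%, since the local background there was 6.15, 6.59 and 6.74 reads. The miR-302 cluster, chr3:127545228-127545807, was strong by either measure. Its region 1, chr3:127544402-127545515, held the Mir302b and Mir302c hairpins and the first bases of Mir302a, and it ranked 96.7% at the lowest, 97.9% at the median and 98.9% at the highest in synHPRT1R, against 89.7%, 96.8% and 97.6% in synHPRT1. The synHPRT1R libraries lay at the top of the range and overlapped synHPRT1. The second region held the start sites of Larp7 and Zgrf1.

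Of 12 let-7 family genes, 6 had a region in all 12 libraries within 10 kb, against 33.9% of 1228 microRNA genes of the table. No region was found near Mirlet7a-2, Mirlet7c-1, Mirlet7f-2 and Mir98, and near Mirlet7b and Mirlet7c-2 there were 2 shared regions listed in 1 library each. Mirlet7i was the only let-7 gene whose hairpin lay under a region in all 12 libraries, chr10:122985003-122986810, with a median rank of 62.1%. Such an overlap was found at 6.76% of microRNA genes. Mirlet7e had a region of median rank 96.2% lying 6987 bp from its hairpin. Mirlet7a-1, Mirlet7d and Mirlet7f-1 lie together on chromosome 13 and share their regions, the stronger with a median of 71.7%. The region of Mirlet7g in all 12 libraries that ranked 18.5% held the start site of Wdr82.

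Most genes that work with the members also had a region in every library. Over all protein-coding genes 65.1% had a region in all 12 libraries within 10 kb. The percentages given below for single genes are median ranks of the strongest peak in the gene span or within 10 kb of it. Such a peak need not lie at the start site and can belong to a neighbouring gene. All 16 cofactors of processing did, led by Khsrp, an RNA-binding factor that promotes let-7 maturation, at 94.0% and Prkra, a Dicer partner, at 92.7%; the lowest were Adar at 63.9% and Ran, the GTPase of nuclear transport, at 63.8%. In the silencing complex 14 of 15 genes did, led by Tnrc6a, the Argonaute-binding scaffold, at 95.4% and the deadenylase subunit Pan2 at 93.4%. The lowest there were the helicase Ddx6 at 40.3% and Ago4 at 15.6%, the 1 gene with no such region. Of the genes of let-7 turnover and LIN28 partners 10 of 11 did. The uridylyltransferase Tut7 led at 97.3% with the nucleotidyltransferase Tent2 at 92.1%, and the lowest were Dhx9 at 62.6% and Tut4 at 62.3%. All 19 let-7 and TRIM71 targets did, with E2f5 highest at 99.2%, and Hmga1 at 51.2% and Ccnd1 at 41.1% the lowest. None of these genes passed the exact permutation test between genotypes after adjustment, and 1, 0, 1 and 2 genes of the lists in this order had an unadjusted p under 0.05, beside the 4.7% of all genes.

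The protein-coding genes whose strongest-peak ranks were closest to each member over the 12 libraries are given by the mean absolute difference of ranks. They were Taco1, Washc2 and Clstn2 for Drosha, with differences of 1.02, 1.05 and 1.12 percentage points. For Dgcr8 they were Cdc25c at 1.21 and Ak6 and Rad17, whose values were equal, at 1.71. Those of Dicer1 were Ptdss2, Thap2 and Glyatl3, at 2.53 to 2.62, and those of Lin28b were Terb1, Psen2 and Myl12a, at 2.15 to 2.64. Trim71 was nearest to Adamts2, Trib1 and Aloxe3, at 4.01 to 5.61. Ago2 was nearest to L1td1, Ak1 and Shroom1, at 5.85 to 6.63, and Lin28a to Ormdl3, Cdx2 and Dnajc18, at 6.20 to 6.55. The ranks compared for Lin28a are those of the Dhdds region, which lies outside the Lin28a gene.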

How the data were processed

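ATAC-seq was measured in 12 libraries, and peaks were called per library. Tools named per the submitters' processing notes were MACS2 2.1.0, Bowtie2 2.2.9, deepTools 3.5.0, bcl2fastq 2.20 and SAMtools 1.9; their settings, any Tn5 shift and the handling of duplicates were not given in the sources used here. The authors' deposited lists give, per peak, start and end, an integer score, the fold (a ratio of summit pileup to local background, 1 added to both), the −log10 p-value and −log10 q-value of the summit, and the summit offset. The lowest deposited −log10 q-value was 1.30.

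Peaks of all libraries were merged by at least 1 bp of overlap. Ranks were computed within each list, 0 meaning unlisted. Summit pileup and local background were recovered from fold and −log10 p-value (tolerance 0.001), for all but 870 of 598028 peaks. Genotypes were compared with Fisher's exact test (presence) and two-sided exact permutation tests of means over all splits of 6 against 6 (ranks, numbers), with Benjamini-Hochberg adjustment over all features and a threshold of 0.05; the scripts were tested on simulated data (Python 3.11.15, numpy 2.4.6, pandas 2.3.3, scipy 1.17.1). At most 0.146% of intervals were identical between any pair of libraries. Gene spans, start sites and sequences came from RefSeq tables of GRCm38.p6, matching the files' build. Named genes were the members, the 2 highest and 2 lowest median ranks of each pathway list and the 3 genes most like each member; 1 gene that this rule names is not reported here. The members and lists were chosen with earlier results of these data known. Alternatives were a stricter q-value, equal list lengths, other windows, overlap and rank columns, a replicate block and leaving out each library.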

Additional observations from a re-analysis of the deposited data

Results flagged for a closer look

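In 64 groups of 6 libraries checked for a single library far from the rest (gap to the nearest value, as a share of the group's range, above Dixon's critical value), 7 were picked out, where chance alone picks about 1 in 20. That rate is only a rough guide here. Some groups repeated the values of another, with a repeated flag counted once, and others were small counts with many ties. The Drosha start site ranked 88.3% in synHPRT1 clone 2 replicate 2, next to 94.3% in the nearest library. Drosha region 13 ranked 5.24% in synHPRT1R clone 2 replicate 1, next to 55.5%. Trim71 region 11 ranked 15.5% in synHPRT1 clone 1 replicate 2, next to 48.8%, and Trim71 region 17 ranked 66.2% in synHPRT1R clone 1 replicate 2, next to 50.4%. Region 1 of the miR-302 cluster ranked 89.7% in synHPRT1 clone 2 replicate 3, next to 95.4%. Drosha had 5 regions listed in synHPRT1 clone 1 replicate 2, where the other 5 libraries had 7 or 8. Dgcr8 had 3 regions listed in synHPRT1R clone 2 replicate 1, where the other 5 had 2.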

How the results depend on the processing

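Under each alternative, 0 regions and 0 genes passed the adjusted tests between genotypes, the replicate block among them. For ranks and numbers, the block allows fewer splits than the main permutation tests. Its smallest possible p is therefore larger, and more features would have to reach it for any to pass the adjustment. The 0 under the block thus does not show that the genotypes were alike. With the replicate block, 164 regions by presence, 1206 by rank, 761 genes by strongest rank and 122 by number of regions had an unadjusted p under 0.05, and 0 of each passed adjustment. Same-numbered libraries of the genotypes did not deviate together (median r of -0.0067 over 12 pairs, lowest -0.0324, highest 0.0729), and the labels do not pair them. The number of member regions listed in all 12 libraries was 13, was 7 with peaks kept only from a −log10 q-value of 5 upward, and was 13 to 15 with 1 library left out (then over 11). The strongest-rank difference of Trim71, synHPRT1R minus synHPRT1, turned to 3.18 with lists of equal length (38400 peaks). The difference in number of regions of Lin28b turned to 0.167 at the stricter q-value and to 0.333 with equal lengths, and that of Drosha to 0.50 with equal lengths. With 1 library left out, the differences in number ranged from -0.433 to 0.167 for Lin28a, from -0.567 to 0.0333 for Drosha and from -0.400 to 0.600 for Trim71, and those in strongest rank from -0.0239 to 1.90 for Drosha and from -3.19 to 1.56 for Trim71. The cause of these turns was not tested; none of the differences passed the adjusted test in any setting. Unadjusted, the number of regions of Ago2 reached an exact permutation p of 0.0346 with the gene span alone and 0.0281 without synHPRT1 clone 1 replicate 1, and that of Dicer1 reached 0.0325 without synHPRT1 clone 2 replicate 3. The Ago2 differences kept their sign, with 1 library left out at -2.73 to -1.33 regions and 2.34 to 10.1 percentage points of strongest rank, and the number difference was -0.667 at the stricter q-value and -0.833 with equal lengths. The Lin28b strongest-rank difference kept its sign in all 20 settings, with a lowest unadjusted exact permutation p of 0.0195 and a lowest adjusted p of 0.857. Median strongest ranks of Ago2 and Trim71 moved most with the measure, to 81.6% and 80.1% by summit pileup. Depth limits the weak regions: a site under 8 to 11 reads at its summit cannot be listed.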
